A study of Homo sapiens with 6 samples.

Results

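This account covers the human genes that encode cytosolic translation initiation factors (EIF1 to EIF6) and elongation factors (EEF1 and EEF2), with the subunits, inhibitors and near-identical copies that carry those names. Members were the rows of the deposited expression table whose symbol starts with EIF1 to EIF6, EEF1 or EEF2, without the EIF2AK kinases and the EEF1A1P pseudogenes. The rule found 60 genes among 14987 rows and used no measured value. Of these, 58 had a signal of at least 1 in at least 2 libraries and were tested; EIF2S3L and EIF4E1B did not, with at most 0.485 and 0.243 in any library.

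The 6 libraries of messenger RNA came from HCT116, an established human colorectal carcinoma line. Cells deprived of glucose for 6 h gave 1 library each from the constructs shYAP1 and shYAP3, with YAP knocked down, and from NC cells, labelled wild type. Cells in control medium gave 1 library each from the same 3 kinds of cell, so each medium had 3 libraries. The question was how far the transcriptional answer to lost glucose needs YAP, a coactivator that the Hippo pathway restrains.

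Listed reads per library ran from 16912634 to 19132907 in deprived cells and from 18512413 to 22161075 in control cells. YAP1 stood at 18.2 to 38.2 in shYAP libraries, against 154 and 188 in NC libraries. Of 8 colorectal epithelial markers, 7 had a row, with a summed signal of 4325 to 5230 in deprived and 2588 to 3717 in control libraries, which KRT8 led. Of the markers of other cells, 3 of 6 for fibroblasts, 5 of 7 for leukocytes and 3 of 5 for endothelium had a row. Their summed signal was 3.05 to 6.33, 12.2 to 24.0 and 0.416 to 0.871 in deprived libraries, and 8.14 to 10.3, 8.23 to 13.3 and 0.591 to 1.26 in control libraries. Their part in the results was not tested. Each medium held a single NC library, and the labels do not state separate cultures, so p-values measure only the spread between these libraries. In bulk RNA a change in the share of cells and a change in RNA per cell cannot be told apart.

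Initiation factors bring the initiator transfer RNA, the messenger RNA and the ribosomal subunits together, and elongation factors then carry aminoacyl-tRNAs to the ribosome and move it along the message. eIF2 delivers the initiator tRNA and is recharged by eIF2B, and its phosphorylation under stress lowers initiation in general while some messages such as ATF4 are translated more. eIF4F binds the message's cap, and the EIF4EBP proteins, which mTORC1 phosphorylates, keep its cap-binding subunit from the rest. Many elongation factor messages begin with a pyrimidine tract at their very start, the 5′ TOP, through which mTORC1 and LARP1 set their translation and stability.

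In the deposited scaling more translation factor transcripts rose than fell after deprivation, and the balance of calls depended on how libraries were scaled. Of the 58 tested, 21 rose and 5 fell in limma at a Benjamini-Hochberg adjusted p under 0.05, against 16.5% of all 12263 tested genes higher and 15.6% lower. The log2 fold change is on the log2(signal + 1) scale, and the median was 0.31 over the members and 0.05 over all tested genes. With quantile normalization 12 were higher and 9 lower (20.7% and 15.5%), against 14.8% and 17.6% of all genes. When libraries were scaled to their listed reads 10 were higher and 11 lower (17.2% and 19.0%), against 6.08% and 31.0% of all genes. Scaling to listed reads moved the median of all genes to −0.24 and of the members to 0.00172, so that the members lay 0.24 above all genes, against 0.26 in the deposited scaling and 0.10 with quantile normalization. The signals of the 3 deprived libraries lay above all 3 control libraries for 32 members and below them for 8, against 26.8% and 23.8% of all tested genes. The log2 response had 1 sign in shYAP1, shYAP3 and NC cells for 45 members, higher for 35 and lower for 10, against 35.1% and 31.1% of all tested genes.

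**Figure D1:**
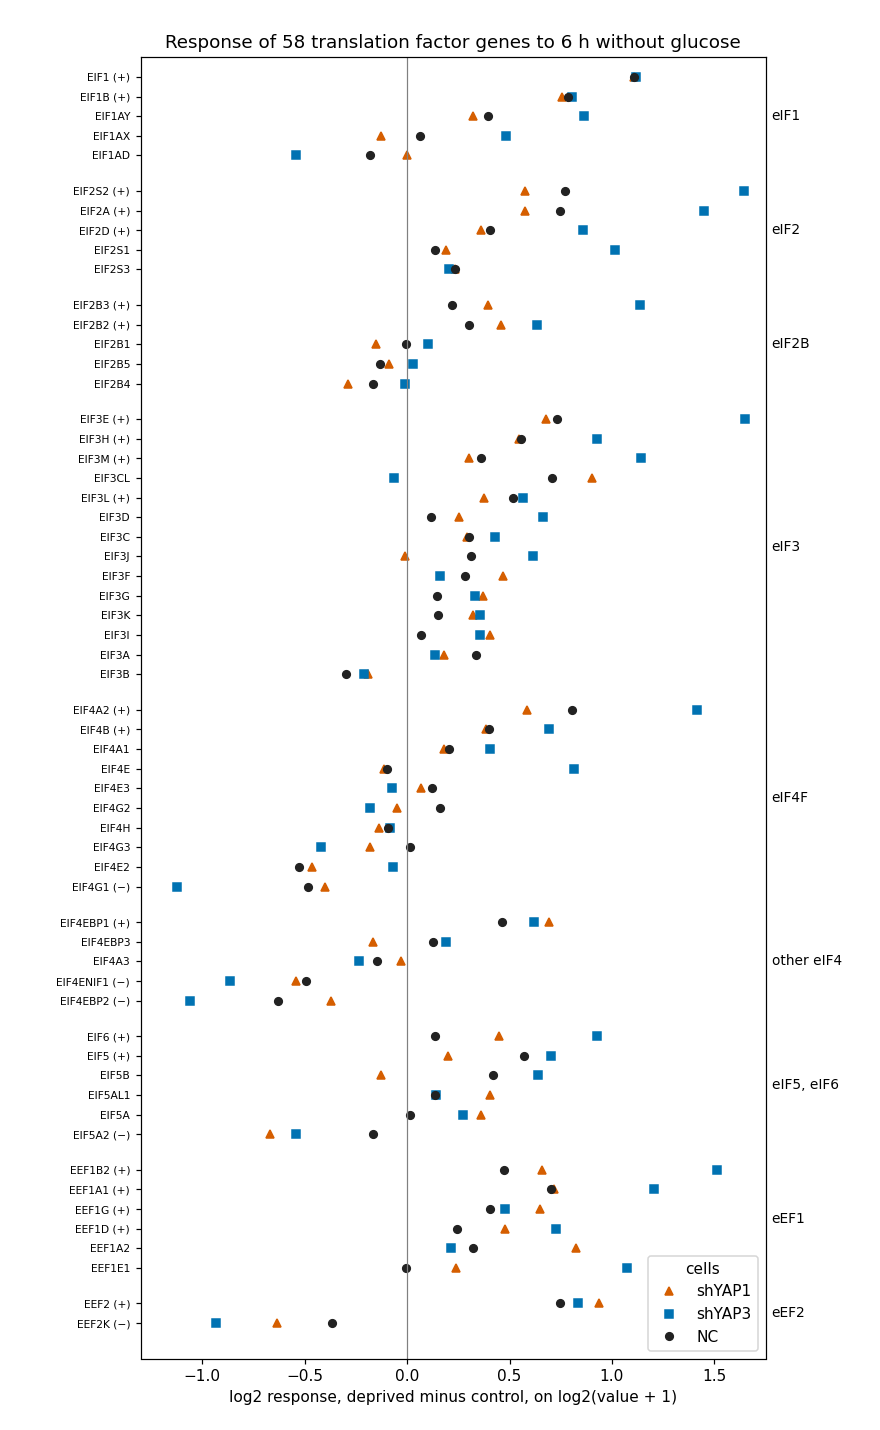
Log2 response (deprived minus control, on log2(signal + 1), horizontal axis) of the 58 tested genes in each of 3 kinds of cell, 1 library a medium. Genes are grouped by complex or name, and (+) and (−) mark genes called higher or lower by limma. EIF1 lies near 1.11 in all 3, while in shYAP3 cells EIF3E and EIF2S2 lie near 1.65.

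The median response of the members was 0.30 in shYAP1, 0.45 in shYAP3 and 0.21 in NC cells, against 0.03, 0.04 and 0.02 over all tested genes. In the same order it was 0.0645, 0.0523 and 0.0446 with quantile normalization and 0.0502, −0.0254 and 0.0173 under listed-read scaling, so neither the order of the cells nor the sign in shYAP3 cells held. The responses in shYAP3 cells had the widest span of the 3 in the plot of responses by complex. Spearman's rho between a member's response and the length of its longest annotated transcript was −0.38 in shYAP1, −0.31 in shYAP3 and −0.18 in NC cells (58 genes). Over 12107 tested genes it was −0.32, −0.38 and −0.10. The genes of a line share its 2 libraries, so these are descriptions. With trends on transcript length and GC content removed, 25 members were higher and 6 lower, against 20.4% and 17.5% of all genes, and without the shYAP3 deprived library 28 were higher and 6 lower, against 23.4% and 19.8%.

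EIF1, which keeps the scanning ribosome open until it meets the start codon, rose in all 3 kinds of cell by nearly the same factor. Its signal was 674, 641 and 664 in shYAP1, shYAP3 and NC cells after deprivation, against 312, 295 and 308 in control medium. The groups did not overlap, and the fold change was 2.16 (log2 1.11, SE 0.13, limma adjusted p = 0.0011). It was the only called member that passed limma, edgeR and DESeq2 in every alternative run. EIF1B, its close paralog, had 36.6, 39.5 and 34.2 in deprived shYAP1, shYAP3 and NC cells, against 21.3, 22.2 and 19.4 in control cells. It rose 1.72-fold (log2 0.78, SE 0.13, limma adjusted p = 0.0040), but did not pass with length and GC trends removed (adjusted p = 0.22). Of 5 genes of the eIF1 and eIF1A kind, 2 rose and 0 fell, against 16.5% and 15.6% of all tested genes. EIF1AX, the scanning factor eIF1A, changed by log2 0.14 (limma adjusted p = 0.53), and by −0.07, −0.17 and −0.22 with quantile normalization, listed-read scaling and length and GC trends removed. Its near copy EIF1AY, with which it may share reads, and EIF1AD did not pass, although EIF1AY did with the construct as a replicate block (adjusted p = 0.037).

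Among the genes with eIF2 names outside eIF2B, 3 of 5 tested rose and 0 fell, against 16.5% and 15.6% of all tested genes. EIF2S1, EIF2S2 and EIF2S3 encode the subunits of eIF2, and of these only EIF2S2 rose. EIF2S2 encodes the beta subunit of the initiator tRNA carrier. It had 256, 444 and 245 in deprived shYAP1, shYAP3 and NC cells, against 171, 141 and 144 in control cells. The groups did not overlap, and the fold change was 1.99 (log2 0.996, SE 0.21, limma adjusted p = 0.0095). EIF2A, a separate initiation factor that can carry initiator tRNA, had 221, 350 and 202 in deprived cells, against 148, 128 and 120 in control cells, in the same order. It rose 1.90-fold (log2 0.92, SE 0.19, limma adjusted p = 0.0081). EIF2D, an initiation and recycling factor, rose 1.46-fold to 68.5 ± 16.6 in deprived libraries, against 45.9 ± 2.26 in control libraries (SD, n = 3 each). The alpha subunit EIF2S1, which the stress kinases phosphorylate, did not pass (log2 0.45, SE 0.18, limma adjusted p = 0.087), with 1.02 in shYAP3 and 0.19 and 0.14 in shYAP1 and NC cells. The gamma subunit EIF2S3 had 0.22 (limma adjusted p = 0.25), and −0.06 and −0.08 with quantile normalization and listed-read scaling. Without the shYAP3 control library EIF2S2 (limma adjusted p = 0.059) and EIF2A (0.055) did not pass. EIF2D lost the call when any NC library or shYAP control library was dropped (highest adjusted p = 0.15), nor scaled to listed reads (0.25).

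Of the 5 subunits of eIF2B, the exchange factor that recharges eIF2 and that phosphorylated eIF2 blocks, 2 rose and 0 fell. Of all tested genes 16.5% were higher and 15.6% lower. EIF2B3, the gamma subunit, rose 1.499-fold to 24.0 ± 5.60 in deprived libraries, against 15.5 ± 2.03 in control libraries (SD, n = 3 each; limma adjusted p = 0.040). EIF2B2, the beta subunit, rose 1.38-fold to 51.9 ± 5.16, against 37.2 ± 1.17 in control libraries (SD, n = 3 each; limma adjusted p = 0.027). EIF2B1, EIF2B4 and EIF2B5 had log2 fold changes of −0.02, −0.16 and −0.06 and did not pass. Scaled to listed reads 0 subunits passed higher, and EIF2B4 passed lower (log2 −0.46, limma adjusted p = 0.027), against 6.08% and 31.0% of all genes. EIF2B2 and EIF2B3 lost the call when any NC library or shYAP control library was dropped (highest adjusted p = 0.17 and 0.21).

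eIF3 is the largest initiation factor, a scaffold of many subunits on the small ribosomal subunit. Of 14 genes with eIF3 names, 4 rose and 0 fell, with 2 and 1 by quantile normalization, 2 and 1 by listed-read scaling and 8 and 0 with length and GC trends removed. The shares of all genes were 16.5% and 15.6%, and in the same order 14.8% and 17.6%, 6.08% and 31.0%, and 20.4% and 17.5%. EIF3E had 1063, 1845 and 795 in deprived shYAP1, shYAP3 and NC cells, against 664, 587 and 478 in control cells. The groups did not overlap, and it rose 2.03-fold (log2 1.02, SE 0.22, limma adjusted p = 0.0099). EIF3H had 444, 531 and 418 in deprived cells, against 304, 278 and 284 in control cells, in the same order. It rose 1.60-fold (log2 0.68, SE 0.14, limma adjusted p = 0.0093). EIF3M, a further subunit, had 296, 465 and 268 in deprived cells, against 240, 210 and 209 in control cells. It rose 1.52-fold (log2 0.60, SE 0.19, limma adjusted p = 0.039). EIF3L rose 1.399-fold to 612 ± 18.3 in deprived libraries, against 438 ± 34.0 in control libraries (SD, n = 3 each; limma adjusted p = 0.027).

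EIF3B, an RNA-binding scaffold subunit, had 406, 378 and 377 in deprived shYAP1, shYAP3 and NC cells, against 465, 438 and 463 in control cells. All 3 deprived values lay below the control values, but the log2 fold change of −0.23 (SE 0.13) did not pass in the deposited scaling (limma adjusted p = 0.20), and passed lower with quantile normalization (−0.56, 0.0085) and listed-read scaling (−0.54, 0.011). EIF3A, the largest subunit, had 0.22 (limma adjusted p = 0.26), −0.34 and −0.09 under those 2 scalings, and 0.34 with length and GC trends removed, where it passed higher (0.043). Of the 10 genes not called, log2 fold changes ran from −0.23 to 0.52. EIF3C and its near-identical copy EIF3CL may share reads: EIF3CL stood at 278, 140 and 222 in deprived shYAP1, shYAP3 and NC cells, against 148, 146 and 136 in control cells, and did not pass (limma adjusted p = 0.11). EIF3CL passed higher with the construct as a replicate block (limma adjusted p = 0.0499), in DESeq2 (0.044) and with length and GC trends removed (0.031), and without the shYAP3 deprived library. EIF3E and EIF3H lost the call when either shYAP control library was dropped (highest limma adjusted p = 0.058 and 0.072), and EIF3L and EIF3M also not without either NC library (highest 0.17 and 0.18) or under both other scalings.

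Of 10 tested genes of eIF4F, the cap-binding machinery, and its helpers, 2 rose and 1 fell, which is close to the 16.5% and 15.6% of all tested genes. The counts were 1 higher and 5 lower with quantile normalization, against 14.8% and 17.6% of all genes. Scaled to listed reads they were 1 and 4, against 6.08% and 31.0%. EIF4A2, an RNA helicase of eIF4F, had 756, 1134 and 744 in deprived shYAP1, shYAP3 and NC cells, against 503, 424 and 426 in control cells. The groups did not overlap, and it rose 1.91-fold (log2 0.94, SE 0.18, limma adjusted p = 0.0072). Its paralog EIF4A1 had 1249, 1303 and 1278 in deprived cells, against 1104, 983 and 1108 in control cells. Those groups did not overlap either, but the log2 fold change of 0.26 (SE 0.14) did not pass (limma adjusted p = 0.18), and was −0.36 with quantile normalization (0.037). EIF4B, which stimulates the helicase, rose 1.41-fold to 1459 ± 67.8 in deprived libraries, against 1038 ± 80.04 in control libraries (SD, n = 3 each; limma adjusted p = 0.034), but had a log2 fold change of −0.14 with quantile normalization.

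EIF4G1, the large scaffold of eIF4F that joins cap-binding protein, helicase and poly(A)-binding protein, had 431, 272 and 479 in deprived shYAP1, shYAP3 and NC cells, against 569, 592 and 672 in control cells. It fell to 0.629 of its control level (log2 −0.67, SE 0.19, limma adjusted p = 0.025). EIF4G2, an eIF4G relative that lacks the cap-binding protein's site, had a log2 fold change of −0.02 and EIF4G3 of −0.20, and neither passed. EIF4G2 passed lower with quantile normalization (−0.59, limma adjusted p = 0.013), and EIF4G3 scaled to listed reads (−0.50, 0.047). EIF4E, the cap-binding subunit, had 157, 266 and 136 in deprived cells, against 170, 151 and 146 in control cells, and did not pass (limma adjusted p = 0.47). Only in shYAP3 cells was its deprived value above its control value. EIF4E2, a cap-binding paralog tied to repression, had 46.8, 54.8 and 43.3 in deprived cells, against 65.0, 57.4 and 62.8 in control cells (log2 −0.35, limma adjusted p = 0.082), and passed lower with quantile normalization (0.035), listed-read scaling (0.0054) and length and GC trends removed (0.036). EIF4A2 did not pass without the shYAP3 control library (adjusted p = 0.051). EIF4G1 and EIF4B lost the call when any NC library or shYAP control library was dropped (highest limma adjusted p = 0.12 and 0.19), EIF4B also not without the shYAP1 deprived library (0.051), and EIF4G1 not with length and GC trends removed (0.066).

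The inhibitors EIF4EBP1 and EIF4EBP2 were called in opposite directions. EIF4EBP1 had 61.2, 54.8 and 61.0 in deprived shYAP1, shYAP3 and NC cells, against 37.5, 35.3 and 43.9 in control cells, and rose 1.51-fold (log2 0.59, SE 0.13, limma adjusted p = 0.012). EIF4EBP2 had 87.6, 52.1 and 75.6 in deprived cells, against 114, 110 and 118 in control cells, and fell to 0.621 of its control level (log2 −0.69, SE 0.19, limma adjusted p = 0.024). Neither pair of groups overlapped. EIF4ENIF1, which carries the cap-binding protein into the nucleus and to processing bodies, fell to 18.1 ± 3.40 in deprived libraries, against 28.5 ± 2.63 in control libraries (SD, n = 3 each; log2 −0.63, limma adjusted p = 0.012). EIF4EBP3 (log2 0.05) and EIF4A3 (−0.14), the helicase of the exon junction complex, did not pass. EIF4EBP1, EIF4EBP2 and EIF4ENIF1 lost the call when any NC library or shYAP control library was dropped (highest limma adjusted p = 0.090, 0.10 and 0.089), and EIF4EBP1 had log2 0.29 scaled to listed reads (0.14).

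**Figure D2:**
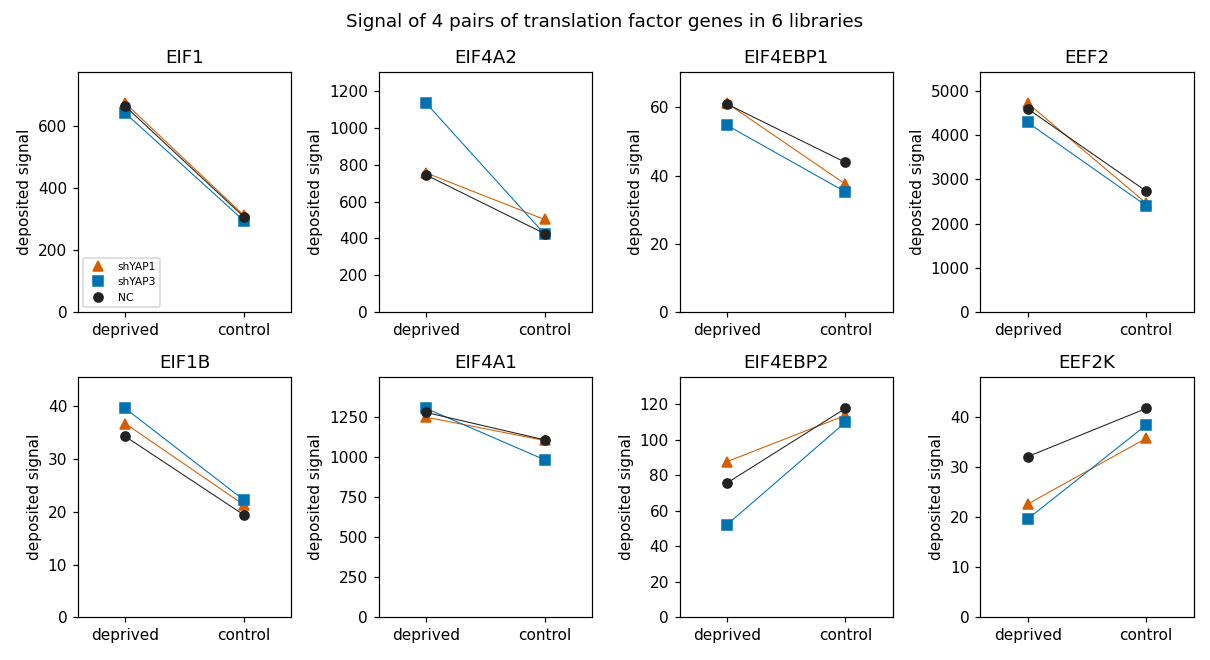
Deposited signal (vertical axis, from 0) of 8 genes in each library, deprived left of control, with a line joining the 2 libraries of shYAP1, shYAP3 and NC cells. EIF4EBP1 lies between 54.8 and 61.2 in deprived cells and between 35.3 and 43.9 in control cells, while EIF4EBP2 lies between 52.1 and 87.6 in deprived cells and between 110 and 118 in control cells.

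A ratio of 2 genes within a library is the same whatever single factor the library is multiplied by, but quantile normalization changes it. The 8 pairs were put together with the values known and are given with no test. The ratio of EIF4EBP1 to EIF4EBP2 signal was 0.699, 1.05 and 0.807 in deprived shYAP1, shYAP3 and NC cells, against 0.331, 0.322 and 0.374 in control cells, a 2.46-fold mean difference. The ratio of EIF4A2 to EIF4A1 signal was 0.605, 0.8697 and 0.582 in deprived cells, against 0.456, 0.431 and 0.385 in control cells, 1.60-fold. The ratio of EEF2 to EEF2K signal was 209, 218 and 143 in deprived cells, against 69.0, 62.8 and 65.7 in control cells, 2.84-fold. With quantile normalization, from the fitted log2 changes of both genes, the differences were 2.55-fold, 1.86-fold and 1.79-fold for these 3 pairs, and 1.03-fold to 1.35-fold for the other 5. The signal is not per length, so the differences and not the levels of these ratios can be read. A ratio shows unequal change, and not which gene of the pair changed.

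**Figure D3:**
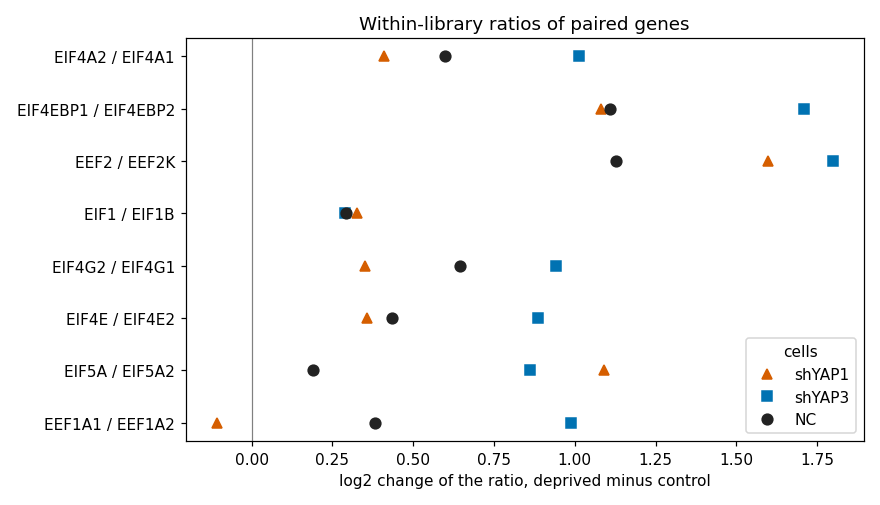
Log2 change of the ratio of the first to the second gene of each pair, deprived minus control (horizontal axis), in shYAP1, shYAP3 and NC cells. The ratio of EEF2 to EEF2K lies between 1.13 and 1.80, whereas that of EEF1A1 to EEF1A2 lies at −0.11 in shYAP1, 0.99 in shYAP3 and 0.38 in NC cells.

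Of the genes with EIF5 and EIF6 names, 2 of 6 rose and 1 fell, with 0 and 0 by quantile normalization and 0 and 1 by listed-read scaling. The shares of all genes were 16.5% and 15.6%, and in the same order 14.8% and 17.6%, and 6.08% and 31.0%. EIF5 had log2 0.20 and 0.18 and EIF6 had 0.28 and 0.20 under quantile normalization and listed-read scaling. EIF5, which makes eIF2 hydrolyse its GTP at the start codon, had 333, 436 and 397 in deprived shYAP1, shYAP3 and NC cells, against 289, 268 and 267 in control cells. It rose 1.41-fold (log2 0.49, SE 0.15, limma adjusted p = 0.034). EIF6, which keeps the large ribosomal subunit from joining too early, rose 1.42-fold to 230 ± 60.0 in deprived libraries, against 158 ± 7.46 in control libraries (SD, n = 3 each; limma adjusted p = 0.045). EIF5B, the GTPase of subunit joining, had 311, 479 and 291 in deprived cells, against 340, 307 and 218 in control cells, and did not pass (limma adjusted p = 0.20). EIF5A2, a hypusine-bearing paralog of EIF5A, fell to 0.727 of its level in control medium (adjusted p = 0.047 in limma), whereas EIF5A had log2 0.22 (0.27), and −0.26 and −0.09 under quantile normalization and listed-read scaling. EIF5AL1, a near-identical copy of EIF5A, may share its reads. EIF5, EIF6 and EIF5A2 lost the call when any NC library or shYAP control library was dropped (highest adjusted p = 0.16, 0.22 and 0.22), EIF5A2 also not without the shYAP1 deprived library, and EIF6 passed in DESeq2 but not in edgeR.

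The elongation factors held most of the reads of the whole set. All members together took 4.68%, 4.81% and 4.65% of listed reads in deprived shYAP1, shYAP3 and NC cells, against 3.76%, 3.61% and 3.73% in control cells. EEF1A1 alone took 2.27%, 2.50% and 2.24% in deprived cells, against 1.64%, 1.51% and 1.58% in control cells. The mean share was 1.01 percentage points higher after deprivation and the groups did not overlap; as a sum over the members it is given with no test. Without EEF1A1 and EEF2 the difference was 0.124 percentage points, 1.96% ± 0.00874 in deprived and 1.83% ± 0.0162 in control libraries (SD, n = 3 each).

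Of 6 genes with EEF1 names, 4 rose and 0 fell, with 1 higher by quantile normalization, 2 scaled to listed reads, and 5 higher and 1 lower with length and GC trends removed. The shares of all genes were 16.5% and 15.6%, and in the same order 14.8% and 17.6%, 6.08% and 31.0%, and 20.4% and 17.5%. EEF1A1, which delivers aminoacyl-tRNA to the ribosome, had 24248, 29266 and 22756 in deprived shYAP1, shYAP3 and NC cells, against 14759, 12703 and 13968 in control cells. It rose 1.83-fold (log2 0.87, SE 0.22, limma adjusted p = 0.017), and reads may be shared with its many processed pseudogenes. Its tissue-restricted paralog EEF1A2 had 595, 380 and 442 in deprived cells, against 336, 327 and 353 in control cells, and did not pass (limma adjusted p = 0.081). EEF1A2 passed higher in DESeq2 (0.0495), with length and GC trends removed (0.0018) and without the shYAP3 deprived library (0.0018). EEF1B2, an exchange factor subunit that recharges EEF1A, rose 1.84-fold to 1292 ± 486 in deprived libraries, against 671 ± 43.0 in control libraries (SD, n = 3 each; limma adjusted p = 0.016). EEF1D (1.397-fold, limma adjusted p = 0.035) and EEF1G (1.42-fold, 0.038), the other subunits, rose too, but EEF1G had a log2 fold change of −0.16 with quantile normalization. EEF1B2, EEF1D and EEF1G did not pass with that scaling (limma adjusted p = 0.065, 0.21 and 0.42). Scaled to listed reads EEF1D and EEF1G did not pass (0.32 and 0.29), nor EEF1A1 and EEF1G without a filter on low values (0.13 and 0.078). EEF1E1, which despite its name sits in the aminoacyl-tRNA synthetase complex, had 68.3, 122 and 50.8 in deprived cells, against 57.7, 57.3 and 50.9 in control cells, and did not pass (limma adjusted p = 0.16); with length and GC trends removed it passed lower (log2 −0.33, 0.029).

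EEF2, the GTPase that moves the ribosome along the message, had 4719, 4283 and 4592 in deprived shYAP1, shYAP3 and NC cells, against 2462, 2405 and 2733 in control cells. The groups did not overlap, and it rose 1.79-fold (log2 0.84, SE 0.16, limma adjusted p = 0.0071), though with quantile normalization it did not pass (log2 0.17, adjusted p = 0.40). EEF2K, the kinase that inactivates EEF2, had 22.6, 19.6 and 32.0 in deprived cells, against 35.7, 38.3 and 41.6 in control cells. It fell to 0.640 of its control level (log2 −0.64, SE 0.15, limma adjusted p = 0.013). EEF2 did not pass without the shYAP1 control library (adjusted p = 0.065), and EEF2K and EEF1B2 not when either shYAP control library was dropped (highest 0.095 and 0.086). EEF1A1, EEF1D and EEF1G lost the call when any NC library or shYAP control library was dropped (highest limma adjusted p = 0.10, 0.18 and 0.17), and EEF1G not without the shYAP1 deprived library.

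In the deposited scaling, the members listed as known for 5′ TOP messages were nearly all among those that rose. Of 9 such members, 8 rose and 0 fell (median log2 0.68), against 16.5% of all tested genes higher and 15.6% lower. With quantile normalization 3 rose, against 14.8% of all genes, and scaled to listed reads 5 rose, against 6.08%. With length and GC trends removed 9 rose, against 20.4% of all genes. The 9 members are EEF1A1, EEF1B2, EEF1D, EEF1G, EEF2, EIF3E, EIF3F, EIF3H and EIF4B. This list was chosen with earlier results of these data known, so its counts are a description. Of these, EIF3F (log2 0.30, limma adjusted p = 0.11) did not pass in the deposited scaling. RefSeq starts on GRCh38.p14 matched 49 of the 60 members by symbol. A start with C followed by at least 4 pyrimidines was present at an annotated start of 12 tested members. It was present in 5.14% of the 27305 genes in the table, which include genes not tested here. Among the other tested genes 682 had it and 8546 did not. EEF1G, known for a 5′ TOP, had no such start there; EEF1D, EIF3E and EIF3H were not matched. The windows below run from 10 bases before the annotated start to 20 from it, and capitals mark the unbroken pyrimidine run that opens at the start. The first group are members with such a start that rose in the deposited scaling. EEF1B2 has 2 annotated starts, and the one with the run is shown.
EEF1A1 (chr6:73521013-73521042, minus strand): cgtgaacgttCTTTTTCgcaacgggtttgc
EEF2 (chr19:3985444-3985473, minus strand): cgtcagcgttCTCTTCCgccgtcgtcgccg
EEF1B2 (chr2:206159885-206159914, plus strand): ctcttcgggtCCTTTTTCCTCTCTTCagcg
EIF4B (chr12:53006446-53006475, plus strand): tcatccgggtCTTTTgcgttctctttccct
EIF2A (chr3:150546777-150546806, plus strand): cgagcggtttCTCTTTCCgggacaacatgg
EIF2D (chr1:206612446-206612475, minus strand): ccagccgggcCCTTTTCgcggccgggcccc
EIF3M (chr11:32583821-32583850, plus strand): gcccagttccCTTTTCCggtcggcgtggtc
EIF4A2 (chr3:186783567-186783596, plus strand): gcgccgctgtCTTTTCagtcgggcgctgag

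The other members with such a start, EIF2S3, EIF3D, EIF3F and EIF3K, had log2 fold changes of 0.22, 0.34, 0.30 and 0.28 and did not pass. The windows of EIF1, which rose with no such start, of the helicase EIF4A1, whose run is shorter, and of the falling EEF2K and EIF4EBP2 follow for contrast and have no capitals.
EIF1 (chr17:41688875-41688904, plus strand): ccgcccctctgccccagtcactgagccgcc
EIF4A1 (chr17:7572815-7572844, plus strand): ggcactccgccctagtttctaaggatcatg
EEF2K (chr16:22206268-22206297, plus strand): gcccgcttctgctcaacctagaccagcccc
EIF4EBP2 (chr10:70404135-70404164, plus strand): gccttcgcccgcttccggtcgtcgtcgtcg

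In the deposited scaling, of the 12 tested members with such a start 8 rose and 0 fell (median log2 0.57). Of the 36 matched tested members without it 7 rose and 5 fell (median 0.17). Of the 8, EIF3M and EIF4B did not pass with quantile normalization or scaled to listed reads. EEF1B2 and EEF2 did not pass with quantile normalization only, and EIF2D scaled to listed reads only. Of the 7, EEF1G, EIF5 and EIF6 passed in neither, and EIF2B2 and EIF2B3 not scaled to listed reads. Among the other tested genes in the promoter table, 186 of 682 with such a start rose and 79 fell (27.3% higher, median 0.19), and 1347 of 8546 without it rose and 1318 fell (15.8% higher, median 0.05). Without ribosomal protein genes, 144 of 638 other genes with the start rose. The counts of other genes are in the deposited scaling only. The start was searched after the responses were known, and an annotated start need not be the one HCT116 cells use, so these counts are a description. In the promoters of the table, from 250 bases before the start to 50 from it, the letters CACGTG were present, at any annotated start, in 12 of 49 matched members (24.5%) and 8.77% of genes. The shares of genes here and below cover the whole promoter table, tested or not. Of the called members, EIF1B, EIF2B3 and EIF4B, which rose, and EEF2K, EIF4G1 and EIF5A2, which fell, held CACGTG. More of the matched members rose than fell. EIF3F, EIF3K, EIF4A3, EIF4E, EIF4EBP3 and EIF4H held CACGTG too and were not called. The letters TGATGNAAT, a form of the ATF4 and C/EBP composite element, were found in 0 of 49 members on either strand and in 1.22% of genes, and GGAATG, the core of a TEAD site, in 8 members (16.3%) and 16.7% of genes.

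**Figure D4:**
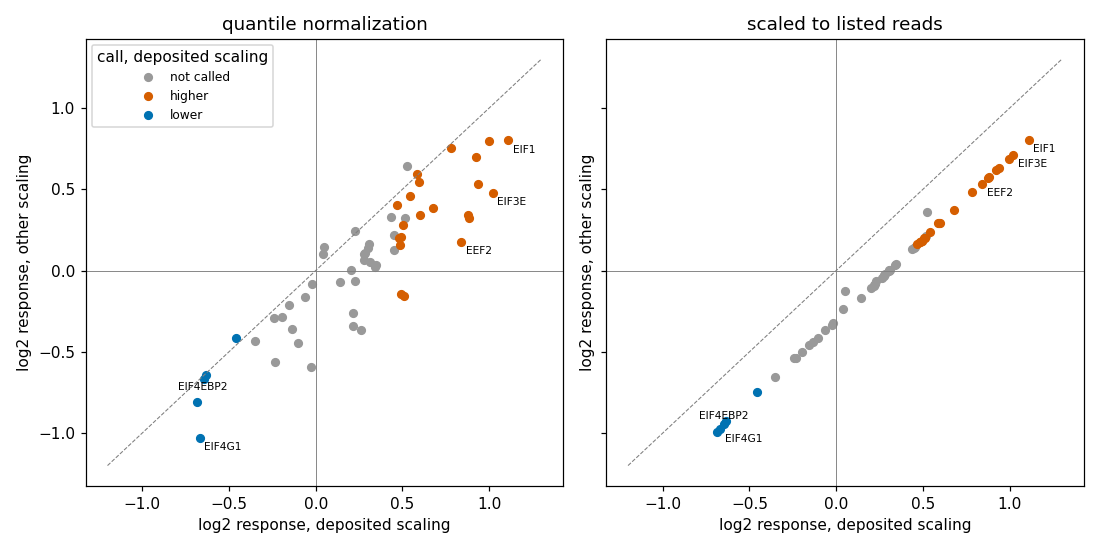
Log2 response of the 58 tested genes in the deposited scaling (horizontal axis) against quantile normalization (left) or scaling to listed reads (right); each point is a gene, colours give the limma call in the deposited scaling and the dashed line marks equal values. EIF1 stays at 0.80 in both, EEF2 drops to 0.17 with quantile normalization, and EIF4EBP2 lies at −0.81 and −0.99.

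Of the genes that regulate or assist these factors, in 5 lists, 10 of 67 tested rose (14.9%) and 6 fell (8.96%), against 16.5% and 15.6% of all tested genes. Their calls are given in the deposited scaling with all libraries only. How these calls hold under other settings or without single libraries is not given here. Of 8 tested genes for the eIF2 kinases and phosphatases, 2 rose and 2 fell. PPP1R15A, the stress-induced subunit that directs a phosphatase to eIF2, stood at 192 ± 35.4 in deprived and 28.6 ± 2.03 in control libraries (SD, n = 3 each), 6.43-fold higher (limma adjusted p = 2.4e-05). EIF2AK3, the reticulum stress kinase PERK, rose 2.51-fold (limma adjusted p = 0.00077), while GCN1L1 (now GCN1), the activator of the amino acid sensor kinase, fell to 0.611 of its control level and EIF2AK2, the kinase PKR, to 0.758 (0.021 and 0.043). The constitutive subunit PPP1R15B (log2 0.24), EIF2AK1 (0.07) and EIF2AK4 (−0.27) did not pass.

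Of 15 genes of mTOR and MNK signalling, 2 rose and 3 fell, near the 16.5% higher and 15.6% lower of all tested genes. The counts of the lists that follow stand against the same shares. RPTOR, the substrate-binding subunit of mTORC1, fell to 0.563 of its control level, LARP1, which binds 5′ TOP messages, to 0.616 and MTOR to 0.647 (limma adjusted p = 0.012, 0.020 and 0.025). Deprived shYAP1, shYAP3 and NC cells had 51.5, 31.6 and 53.5 for RPTOR, 139.3, 90.9 and 174.5 for LARP1, and 77.9, 52.5 and 96.7 for MTOR. Each was lowest in shYAP3 cells. RHEB, the GTPase that activates mTORC1, rose 1.52-fold and RPS6, a ribosomal protein and substrate of the pathway, 1.90-fold (limma adjusted p = 0.018 and 0.012). Of 18 genes of message binding and scanning 3 rose, PAIP2, MCTS1 and PAIP1, and 1, the helicase DDX3X, fell (log2 0.63, 0.58, 0.42 and −0.49). PAIP2 had 154.1, 226.9 and 116.7 in deprived shYAP1, shYAP3 and NC cells, against 110.5, 100.7 and 98.06 in control cells. Of 11 genes of termination and rescue, LTN1, a ligase for stalled nascent chains, rose 1.63-fold and GCN1L1, counted here too, fell. Of 16 other elongation genes, EFTUD1 (now EFL1), which removes EIF6 from the large subunit, rose 1.86-fold and GTPBP2, a ribosome rescue factor, 1.54-fold, and 0 fell.

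In limma the comparison of YAP knockdown with NC called only YAP1, so the lack of called translation factors is no trait of theirs. Over both media, with 4 shYAP and 2 NC libraries, 0 of 58 members passed limma, edgeR or DESeq2, against 0.00815% of all tested genes in limma, which is YAP1 itself (log2 −2.63). At an unadjusted p under 0.05 there were 4 members in limma, and 898 of 12263 genes. These were EIF4EBP3 (log2 −0.55, SE 0.19), EIF3E (0.60, SE 0.23), EIF5B (0.49, SE 0.19) and EEF2K (−0.37, SE 0.16), each with a limma adjusted p of 0.58. Depth limits EIF4EBP3, which had only 17 to 49 reads in a library. The 4 shYAP libraries lay above both NC libraries for EIF5B, EIF1AX, EEF1E1 and EIF4E, against 4.83% of all tested genes. They lay below both for EIF4EBP3 and EIF4G2, against 6.04%. EIF5B stood at 307 to 479 in shYAP and 218 and 291 in NC libraries.

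**Figure D5:**
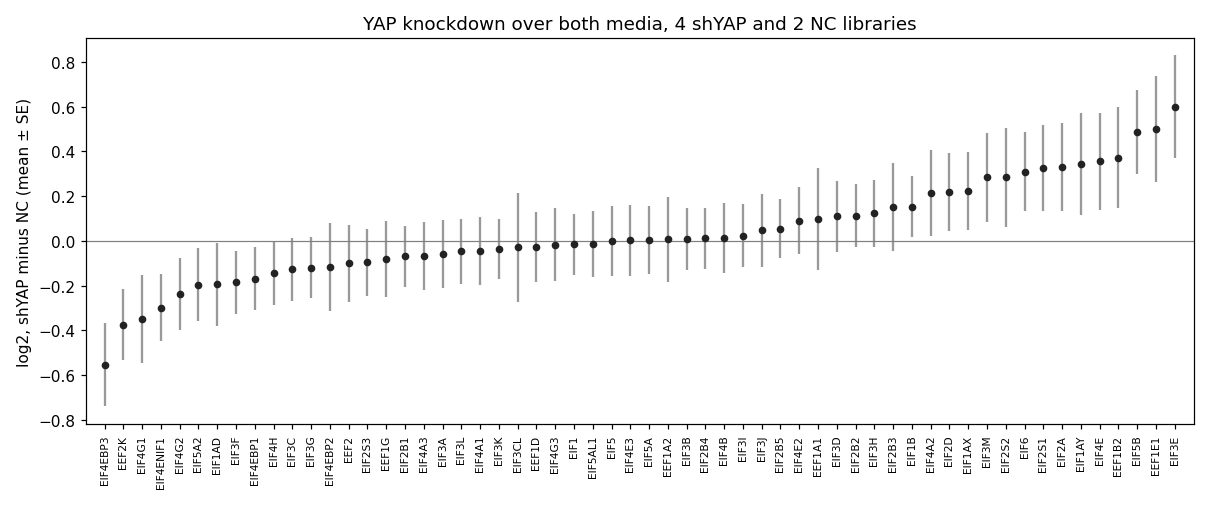
Log2 difference of shYAP minus NC cells over both media (vertical axis, point with SE from limma) for the 58 tested genes in rising order. The values run from −0.55 for EIF4EBP3 to 0.60 for EIF3E, and none passed.

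The response to deprivation of shYAP cells minus that of NC cells was tested with 1 mean per genotype and medium. In limma 0 of 58 members passed, against 0% of all tested genes, and 0 members and 111 of 12263 genes had an unadjusted p under 0.05. edgeR and DESeq2 also called 0 members. The member with the smallest p was EIF6 (log2 0.55, SE 0.33, limma adjusted p = 1). For EIF1 the difference was 0.00388 on the log2 scale (SE 0.30), and its response was 1.11, 1.12 and 1.11 in shYAP1, shYAP3 and NC cells. Without the shYAP1 deprived library 14 members passed in limma, EEF1B2, EIF2S2, EIF3E and EIF4G1 among them, in a fit in which shYAP3 was the only deprived shYAP library and which called 2735 of all genes. Without the shYAP3 deprived library 0 members passed, and that fit called 269 of all genes.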

How the data were processed

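Per the labels' protocols, messenger RNA was captured with oligo-dT beads, fragmented and made into Illumina libraries. Bowtie2, BWA and hg19 are named, per the submitters' processing notes, with no role or version; the counter, annotation and strand setting are not given in the sources used here. The deposited signal is a value per gene scaled by the authors in a way not described, and it is not per length. Dividing a library's column by its smallest step, 0.0406 to 0.0693, gave whole reads for 100% of values (within 0.01), and a 0 stands for at most 3 reads, a signal of 0.122 to 0.208 (counting error only). No row is at 0 in the NC control library, against 535 to 942 rows in the others, so a gene with no reads there is not analysed here. A second symbol column of the EIF4A2 row names a microRNA gene.

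The values being normalized, limma (3.58.1, R 4.3.3) with a trend on log2(signal + 1) was used over 12263 genes with a signal of at least 1 in at least 2 libraries, adjusted by Benjamini-Hochberg and called at 0.05. Genotype and medium entered additively for the response and the knockdown. edgeR (4.0.16, quasi-likelihood, called 1856 genes higher and 1992 lower in the response) and DESeq2 (1.42.0) ran on the recovered reads as alternatives. Transcript length and GC content came from GENCODE v29 for 98.0% of genes, and start sequences from RefSeq GRCh38.p14; no coordinate was carried between builds. The labels name the same construct in both media, which an alternative used as a block; deviations from the medium means correlated at 0.00998 for shYAP1, 0.332 for shYAP3 and 0.459 for NC.

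The rule for the members reads symbols only, but the rule and the gene lists were chosen with earlier results of these data known. Full values are given for up to 12 called members in each direction, for paralog pairs and for genes of known 5′ TOP messages, and for up to 4 genes of smallest p per list of regulators.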

Additional observations from a re-analysis of the deposited data

How the results depend on the processing

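Calls in the response depended on scaling and on single libraries. Members called higher were 21, against 12 after quantile normalization and 10 under listed-read scaling; members called lower were 5, against 9 and 11. Without single libraries they ran from 3 to 28 higher and from 0 to 6 lower, the fewest without the shYAP3 control library, and 9 and 1 without either NC library, where the response is that of shYAP cells alone. In the same fits 3.86% to 23.4% of all genes were called higher, and the members' median stayed between 0.26 and 0.36. Members whose groups did not overlap were 32 higher and 8 lower, against 17 and 15 after quantile normalization and 14 and 15 under listed-read scaling. With the construct as a replicate block 23 rose and 5 fell, the block adding EIF3CL and EIF1AY and changing no other call. That fit called 19.0% of all genes higher and 17.4% lower. Without a filter on low values 14 rose and 4 fell, against 10.9% and 11.7% of all genes.

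The median response of the members in shYAP1, shYAP3 and NC cells was 0.0645, 0.0523 and 0.0446 with quantile normalization, 0.0502, −0.0254 and 0.0173 when scaled to listed reads, and 0.19 and 0.25 in shYAP1 and shYAP3 cells with length and GC trends removed. For the difference between shYAP and NC responses, 14 members passed without the shYAP1 deprived library and 0 in every other fit that could be made; no fit was possible without an NC library.

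The sign of the log2 response changed for these members. With quantile normalization it was −0.16 for EEF1G, −0.14 for EIF4B, −0.34 for EIF3A, −0.0647 for EIF2S3, −0.36 for EIF4A1, −0.0677 for EIF1AX and −0.26 for EIF5A. Scaled to listed reads it was −0.0918 for EIF3A, −0.0028 for EIF3F, −0.0837 for EIF2S3, −0.0446 for EIF4A1, −0.13 for EIF4EBP3, −0.0295 for EIF3K, −0.0224 for EIF3G, −0.0633 for EIF5AL1, −0.24 for EIF4E3, −0.0312 for EIF3I, −0.17 for EIF1AX, −0.0929 for EIF5A and −0.11 for EIF4E. With length and GC trends removed it was −0.0378 for EIF1AY, −0.13 for EIF3J, −0.0013 for EIF2S3, −0.27 for EIF4EBP3, −0.0083 for EIF4E3, −0.22 for EIF1AX, 0.0052 for EIF4G3, −0.33 for EEF1E1, 0.12 for EIF2B5 and 0.0300 for EIF2B4. With 1 library left out in turn, the response crossed 0 for EIF4EBP3 (−0.0696 to 0.192), EIF4G2 (−0.116 to 0.0590), EIF4E3 (−0.0239 to 0.126), EIF1AX (−0.0276 to 0.286), EIF2B1 (−0.0707 to 0.0360) and EIF4E (−0.0585 to 0.374). The cause was not tested. Of these only EEF1G and EIF4B had passed. Of 26 called members, 2 passed without each library in turn, EIF1 and EIF1B, and 9 passed in all 8 other settings. Depth does not limit most members, whose signal lay far above that of 3 reads; it limits EIF1AY, EIF2S3L, EIF4E1B and EIF4EBP3.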
